A study of Sus scrofa with 30 samples.

Results

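The microRNAs miR-151, miR-28 and miR-708 were followed through the porcine endometrium as 32 listed sequences. They were taken by name from the study's list of 873 annotated small RNA sequences, as every sequence whose name holds mir-151, mir-28 or mir-708, and each was counted by exact match in the deposited tables. Of the 32, 5 were canonical, that is, annotated in the study's list as the mature microRNA, and 26 were isomiRs, forms of the same microRNA with a shifted end. The remaining sequence carried 1 base change. Which sequence is canonical was taken from this list and was not checked against a microRNA database here, and all shares of canonical forms and names of isomiRs rest on it. The 32 sequences held 338415 reads, 0.439% of the reads of all listed sequences, and 30 of them were read in every library.

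The 30 libraries were made from total RNA of the endometrium, 1 per animal, from crossbred gilts (Hampshire x Duroc) aged 7 to 8 months from 1 herd. Pregnant gilts (P, inseminated) were sampled on days (D) 12, 16 and 20 of pregnancy (PD12, n = 5; PD16, n = 5; PD20, n = 6), and cyclic gilts (C) on the same days of the estrous cycle (CD12, n = 4; CD16, n = 5; CD20, n = 5). In the pig the earliest of these days falls into maternal recognition of pregnancy and the later ones into the attachment of the embryos. By the methods of the study, conceptuses were flushed from the uterine horns up to D16 of pregnancy. PD20 endometrium was instead taken at implantation sites, once the embryos and their trophoblast had been removed. In comparisons with PD20 this difference in sampling cannot be told apart from day or pregnancy. A library held between 2029729 reads (PD16, replicate 3) and 6402731 reads (CD12, replicate 2).

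A microRNA hairpin is cut to a duplex with a 5p and a 3p arm, and either arm can be loaded into an Argonaute protein. Bases 2 to 8 of the loaded strand, the seed, pair with the target mRNA, so a shift of the 5′ end changes the seed, whereas a shift of the 3′ end does not. miR-151 and miR-28 belong to the microRNAs whose hairpins derive from LINE-2 repeats, and miR-708 is counted with the miR-28 family. All are carried in introns of protein-coding genes in mammals. In the RefSeq gene table for the pig (Sscrofa11.1, 3 of 3 names matched), MIR151 lay within PTK2, the gene of focal adhesion kinase, MIR28 within LPP, which encodes an adhesion-site protein, and MIR708 within TENM4, which encodes a teneurin.

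Canonical sequences of 4 arms are shown as DNA, 5′ to 3′, because an isomiR is defined by its distance from the canonical sequence. Capitals mark the seed, bases 2 to 8.
miR-151-5p: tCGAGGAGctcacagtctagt
miR-28-5p: aAGGAGCTcacagtctattgag
miR-28-3p: cACTAGATtgtgagctcctgga
miR-708-5p: aAGGAGCTtacaatctagctggg
In 3 of the 5 arms another sequence was the most abundant, and it lacked the last base of the canonical one (DEL A or DEL G, with the lost base named). Those of the miR-28 arms are shown.
miR-28-5p DEL G: aAGGAGCTcacagtctattga
miR-28-3p DEL A: cACTAGATtgtgagctcctgg
Bases gained or lost at the start are written as 5' ADD and 5' DEL, and those at the 3′ end as ADD and DEL. The form of miR-151-5p that starts 2 bases later is shown because it carries the seed of miR-28-5p.
miR-151-5p 5' DEL TC: gAGGAGCTcacagtctagt

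The 5p arms are close relatives. Canonical miR-151-5p and miR-28-5p shared an unbroken stretch of 16 bases, AGGAGCTCACAGTCTA, which began at base 4 of miR-151-5p and at base 2 of miR-28-5p. The seed of miR-28-5p therefore lay inside miR-151-5p, shifted by 2 bases, and the isomiR miR-151-5p 5' DEL TC carried it as its own seed. Canonical miR-708-5p had the same first 8 bases as miR-28-5p. Over the 22 compared bases, counted from 1 at the 5′ end, it differed from miR-28-5p at 6: C9T, G13A, T18G, T19C, G20T and A21G.

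The 32 sequences carried 10 seeds, and no other listed sequence carried any of them. The seed of canonical miR-151-3p was the most abundant, at 2837 ± 1562 CPM (SD, n = 30). CPM are counts scaled to the total of the listed sequences, normalized by TMM (trimmed mean of M-values), in the usual unit of the field. The seeds of canonical miR-151-5p (CGAGGAG) and miR-28-3p (ACTAGAT) followed at 711 ± 238 CPM and 533 ± 222 CPM. Seed AGGAGCT was carried by 5 sequences from 3 microRNAs, which together reached 238 ± 82.7 CPM. Of its reads, 92.3% ± 3.74 (SD, n = 30) came from the 3 forms of miR-28-5p, 5.94% ± 2.93 from miR-151-5p 5' DEL TC and 1.77% ± 1.44 from miR-708-5p. The 6 seeds made by other shifts of the 5′ end lay between 4.02 CPM and 42.9 CPM.

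The arms differed widely in abundance, in the order miR-151-3p, miR-151-5p, miR-28-3p, miR-28-5p and miR-708-5p. miR-151-3p had 14 listed sequences with a summed level of 2911 ± 1595 CPM. miR-151-5p had 7 sequences at 743 ± 247 CPM, and miR-28-3p had 7 at 546 ± 227 CPM. miR-28-5p had 3 sequences at 221 ± 80.8 CPM. Of the neighbours in this order, miR-151-5p and miR-28-3p had overlapping SD ranges. miR-708-5p was listed as its canonical sequence alone and stood at the limit of detection, with 3.75 ± 2.62 CPM and between 1 and 24 reads per library. How well each sequence is ligated and amplified was not measured, so these levels rank reads and not molecules.

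The end at which the forms varied was mostly the 3′ end. Of the 26 isomiRs, the 3′ end alone was changed in 15, the 5′ end alone in 4 and both ends in 7. In miR-151-3p the form without the last A made up 60.4% ± 3.85 (SD, n = 30) of the listed reads of the arm, the canonical sequence 23.9% ± 4.28 and DEL GA 11.9% ± 1.84. The DEL A form exceeded the canonical one in 30 of 30 libraries, with a geometric mean ratio of 2.56 (range 1.65 to 4.03). In miR-28-3p the DEL A form and the canonical one were close, at 50.2% ± 5.82 and 44.9% ± 6.25, and DEL A was the more abundant in 19 of 30 libraries.

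miR-28-5p was the arm farthest from its canonical end. Its DEL G form held 82.2% ± 6.89 of the reads and DEL AG 10.7% ± 2.97, while the canonical sequence held 7.11% ± 6.86. DEL G was ahead in 30 of 30 libraries, by a geometric mean of 14.9 times. The canonical share ranged from 1.16% to 35.7%, and both highest values were in CD20, where replicate 1 had 35.7% and replicate 2 had 21.4%, against 3.61%, 7.96% and 3.41% in replicates 3, 4 and 5. In the same group DEL G stood at 47.7 CPM and 59.6 CPM in replicates 1 and 2, against 299.8 CPM, 224 CPM and 289 CPM in the others. The summed level of 10 epithelial microRNAs was also lowest in these replicates, at 10094 CPM and 10066 CPM against 13913 CPM to 14662 CPM. The list of 4 stromal and smooth muscle microRNAs was highest there, at 77787 CPM and 63232 CPM against 46456 CPM to 56797 CPM, and the other marker lists overlapped. Their part in the miR-28-5p values was not tested.

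miR-151-5p alone among these 4 arms was most abundant as the canonical sequence, with 80.0% ± 3.99 of the reads. Its listed forms with bases beyond the canonical 3′ end, ADD A, ADD AT and ADD AC, held 14.9% ± 3.61. ADD AT exceeded ADD AC in 30 of 30 libraries, by a geometric mean of 8.04 times. Forms with a shifted 5′ start, and so another seed, held 4.24% ± 0.77 of miR-151-5p, 2.62% ± 0.47 of miR-151-3p and 2.56% ± 1.18 of miR-28-3p, and none was listed for miR-28-5p. Counting all deposited sequences of the arm, the share in miR-28-3p was 5.68%.

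**Figure D1:**
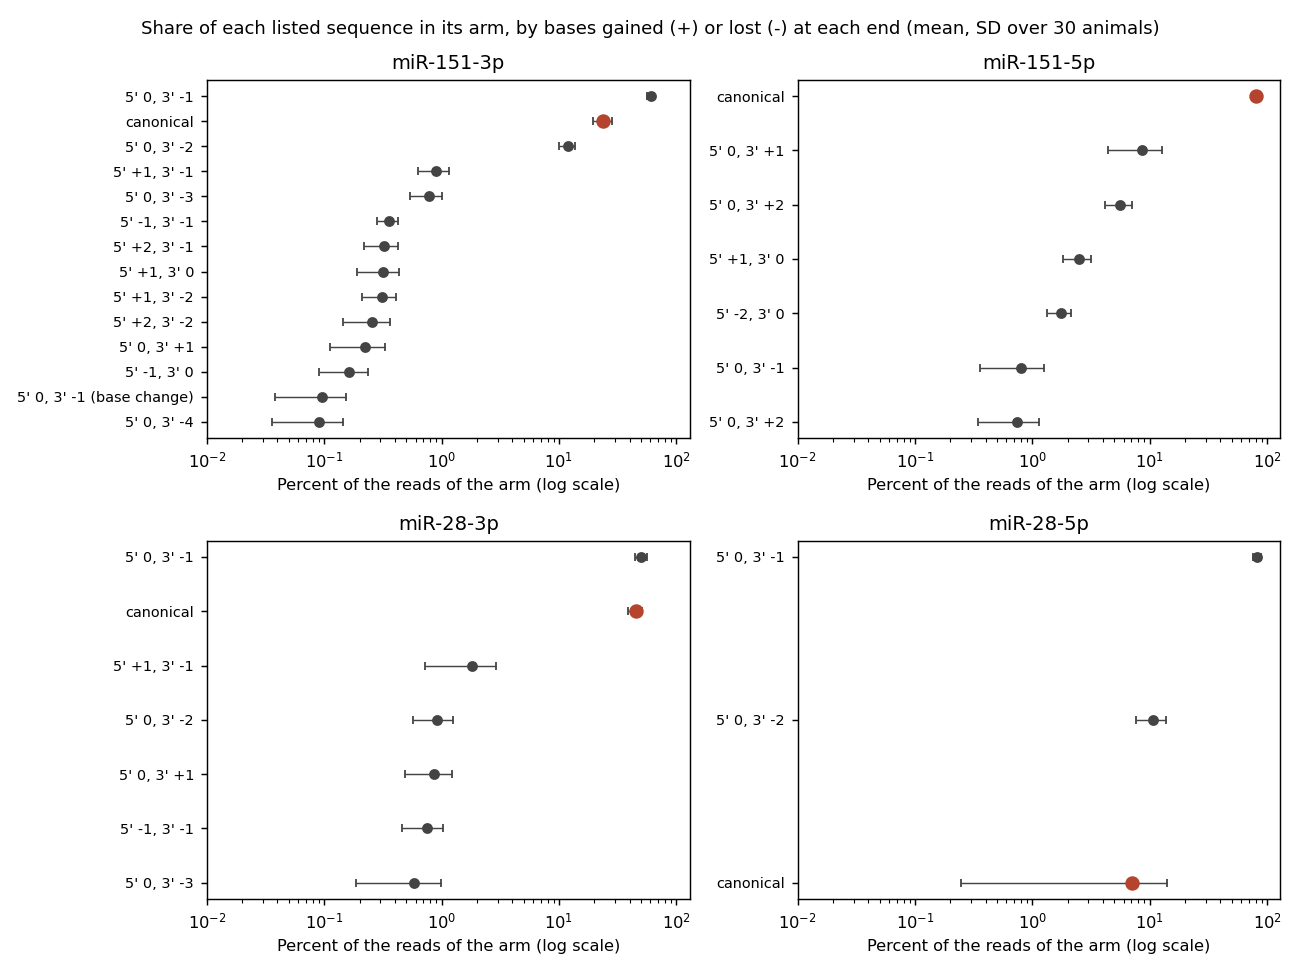
Share of each listed sequence in the reads of its arm (percent, log scale; point: mean over 30 animals, bar: SD), ordered by abundance and labelled by the bases gained or lost at the 5′ and 3′ ends; canonical sequences are in red, and the 2 forms of miR-151-5p with 2 more bases at the 3′ end differ in their last base. The canonical sequence leads in miR-151-5p (80.0%) and comes last in miR-28-5p (7.11%).

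The list did not hold all reads of the arms. Counting every deposited sequence that starts within 2 bases of a canonical start and matches it over at least 17 bases, 13.8% of miR-151-5p reads, 24.6% of miR-28-3p, 31.3% of miR-151-3p, 32.8% of miR-28-5p and 66.5% of miR-708-5p reads lay on sequences outside the list. The most abundant of these in both 5p arms are shown, because each had more reads than most listed forms of its arm.
miR-28-5p, outside the list: aAGGAGCTcacagtctattgaa
miR-151-5p, outside the list: tCGAGGAGctcacagtctagc
The miR-28-5p sequence had 4734 reads in 30 of 30 libraries, or 19.6% of the deposited reads of the arm, against 969 reads of the canonical sequence. The miR-151-5p sequence had 5320 reads (8.34%), also in 30 of 30 libraries. Among reads that extend the canonical 3′ end, a single A was the most frequent addition in miR-28-5p (77.4%), miR-151-3p (53.0%), miR-151-5p (46.6%) and miR-28-3p (44.8%), and a single T in miR-708-5p (54.2%).

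Of the 32 sequences, 1 was listed under a rodent name, miR-151-3p A10G DEL A. It had 224 reads in 27 libraries and made up 0.158% ± 0.0967 (SD, n = 30) of the reads of this sequence and of miR-151-3p DEL A together. For comparison, the median share of a single-base change of miR-151-3p DEL A, its last 2 bases left aside, was 0.0108%, and the highest was 0.418% (A3G, 581 reads). The share of the listed change lay between 0.139% ± 0.0884 (PD16) and 0.178% ± 0.104 (PD20) in the 6 groups.

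Before levels were compared between groups, the libraries were checked for the cell types that endometrium holds. Fewer cells of a type and less RNA per cell cannot be told apart in RNA of whole tissue. All 10 listed epithelial microRNAs were found, with a summed level of 17924 ± 4945 CPM, as were all 4 of the stromal and smooth muscle list (76042 ± 64543 CPM, led by miR-143-3p at 61442 CPM), all 3 of erythrocytes (1424 ± 916 CPM, led by miR-451 at 798 CPM) and miR-126 of endothelium (3535 ± 782 CPM). Of leukocyte microRNAs 4 of 5 were found (258 ± 125.5 CPM, led by miR-146a-5p at 133.1 CPM), without miR-223, and of skeletal muscle 3 of 4 (4659 ± 7457 CPM, led by miR-1 at 4236 CPM), without miR-133a. PD20 replicate 1 stood apart from all other libraries, with 396931 CPM of the stromal list and 40186 CPM of the muscle list. CD12 replicate 2, the deepest library, had the next highest level of the stromal list, 152709 CPM.

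Between the days of pregnancy no member was called. A call required an adjusted p below 0.05 in edgeR's quasi-likelihood test, fitted across the 873 sequences, and a log2 fold change (log2FC) beyond 1, with D16 and D20 tested jointly against D12. In the whole list 0.229% of sequences were called for PD16 and 0.802% for PD20 against PD12, and 0.573% for PD20 against PD16. At an unadjusted p below 0.05 the joint test held 1 of 32 members (18.7% of all sequences) and PD20 vs PD16 held 0 (14.2%). The p-values set the difference between groups against the spread between these animals.

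That member was miR-28-5p DEL G, the leading form of its arm. It stood at 139, 167, 114, 149.9 and 83.4 CPM in PD12, at 166, 244, 228, 109 and 285 CPM in PD16, and between 159.6 CPM and 268 CPM (median 221 CPM) in PD20. Most values on D16 and D20 lay above those on D12, but the groups overlapped. The log2FC was 0.71 ± 0.30 (SE) on PD16 and 0.75 ± 0.29 on PD20 vs PD12, with an adjusted p of 0.244 in edgeR's joint test. It was the largest positive log2FC among the members with a mean of at least 10 CPM over the 30 libraries, the limit used for all such extremes. The largest negative ones were -0.36 ± 0.32 for canonical miR-151-3p on PD16 and -0.50 ± 0.42 for miR-151-3p 5' DEL C, DEL A on PD20 vs PD12. On PD20 vs PD16 the extremes were 0.17 ± 0.31 for miR-28-5p DEL AG and -0.54 ± 0.30 for canonical miR-151-5p.

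On the same days of pregnancy the leukocyte list stood at 190 ± 67.2 CPM in PD12, 233 ± 81.8 CPM in PD16 and 312 ± 116 CPM in PD20, miR-126 of endothelium at 3226 ± 490.1, 3406 ± 149.9 and 3913 ± 606 CPM, and the erythrocyte list at 1199 ± 426, 1421 ± 1217 and 2190 ± 1177 CPM. The epithelial list stood at 18337 ± 4885, 20989 ± 5317 and 19354 ± 4575 CPM, the stromal list at 63606 ± 14607, 48748 ± 7907 and 116763 ± 137727 CPM, and the muscle list at 3097 ± 2919, 2474 ± 1152 and 9980 ± 14977 CPM. Their part in the miR-28-5p DEL G values was not tested.

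Between the days of the estrous cycle no member was called either, where 0.115% of all listed sequences were called for CD16 and 0.458% for CD20 against CD12, and 0.458% for CD20 against CD16. At an unadjusted p below 0.05 the joint test held 7 of 32 members, or 21.9%, close to the 23.9% of all sequences, and CD20 vs CD16 held 4 of 32, or 12.5%, against 21.2%. The members of lowest p were forms of miR-151-3p.

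Summed over its 14 sequences, miR-151-3p stood at 1884, 8824, 3405 and 5674 CPM in CD12. It stood at 2342, 2438, 3559, 1450.0 and 1621 CPM in CD16 and at 1171, 1238, 1372, 3119 and 2618 CPM in CD20. CD12 held the 2 highest libraries, replicates 2 and 4, but its lowest library lay within the range of the later days. The mean was 4947 ± 3018 CPM (SD, n = 4) in CD12, 2282 ± 835 CPM (n = 5) in CD16 and 1904 ± 901 CPM (n = 5) in CD20. The log2FC of the sum was -1.17 ± 0.47 (SE) on CD16 and -1.49 ± 0.47 on CD20 vs CD12, with an adjusted p of 0.114 in edgeR's joint test, in which 0.496% and 1.49% of the summed microRNAs were called. miR-151-5p, from the same hairpin, had means of 700 ± 242, 706 ± 192 and 753 ± 321 CPM on the 3 days and a log2FC of -0.09 ± 0.39 and -0.03 ± 0.39.

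Single forms of miR-151-3p gave the same picture. The DEL GA form had the largest negative log2FC among members with a mean of at least 10 CPM, -1.43 ± 0.48 on CD16 and -1.51 ± 0.48 on CD20 vs CD12 (edgeR, adjusted p = 0.121). Its values were 261, 1399, 474 and 635 CPM in CD12 and reached from 142.3 CPM to 353 CPM in CD16 and from 150.8 CPM to 407 CPM in CD20. The leading DEL A form had a log2FC of -1.08 ± 0.48 and -1.43 ± 0.48 (adjusted p = 0.143), and the canonical sequence one of -0.64 and -1.21 (adjusted p = 0.172). All 14 forms had a log2FC below 0 on CD20 vs CD12, as had 45.8% of all sequences, with a median of -1.31 against 0.09, and they did so under each of the 4 other scalings and fits compared as well (medians -0.90 to -1.35). These forms come from 1 hairpin and are not independent. On PD20 vs PD12, 8 of the 14 were below 0, against 50.7% of all sequences, with a median of -0.02. Under the 4 other scalings and fits 8 to 13 were below 0 (medians -0.02 to -0.17), with 13 when library size was taken from all deposited reads.

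CD12 replicate 2 weighed heavily on these values. Without it the log2FC of DEL GA was -0.84 and -0.93 (edgeR, adjusted p = 0.371) and that of DEL A -0.69 and -1.04 (adjusted p = 0.380), and 2 of 32 members instead of 7 stayed below an unadjusted p of 0.05, against 20.0% of all sequences in that fit. On the same days the epithelial list stood at 16294 ± 2129 CPM in CD12, 19370 ± 5865 CPM in CD16 and 12588 ± 2305 CPM in CD20, miR-126 of endothelium at 2602 ± 778, 3197 ± 610 and 4604 ± 293 CPM, the leukocyte list at 208 ± 64.8, 144.6 ± 59.6 and 440 ± 93.0 CPM, and the stromal list at 93098 ± 41430, 70444 ± 21536 and 58859 ± 12385 CPM. The muscle list stood at 2415 ± 1455, 5394 ± 6381 and 3082 ± 3211 CPM, and the erythrocyte list at 972 ± 427, 1446 ± 935 and 1076 ± 618 CPM. The part of these lists in the miR-151-3p values was not tested.

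**Figure D2:**
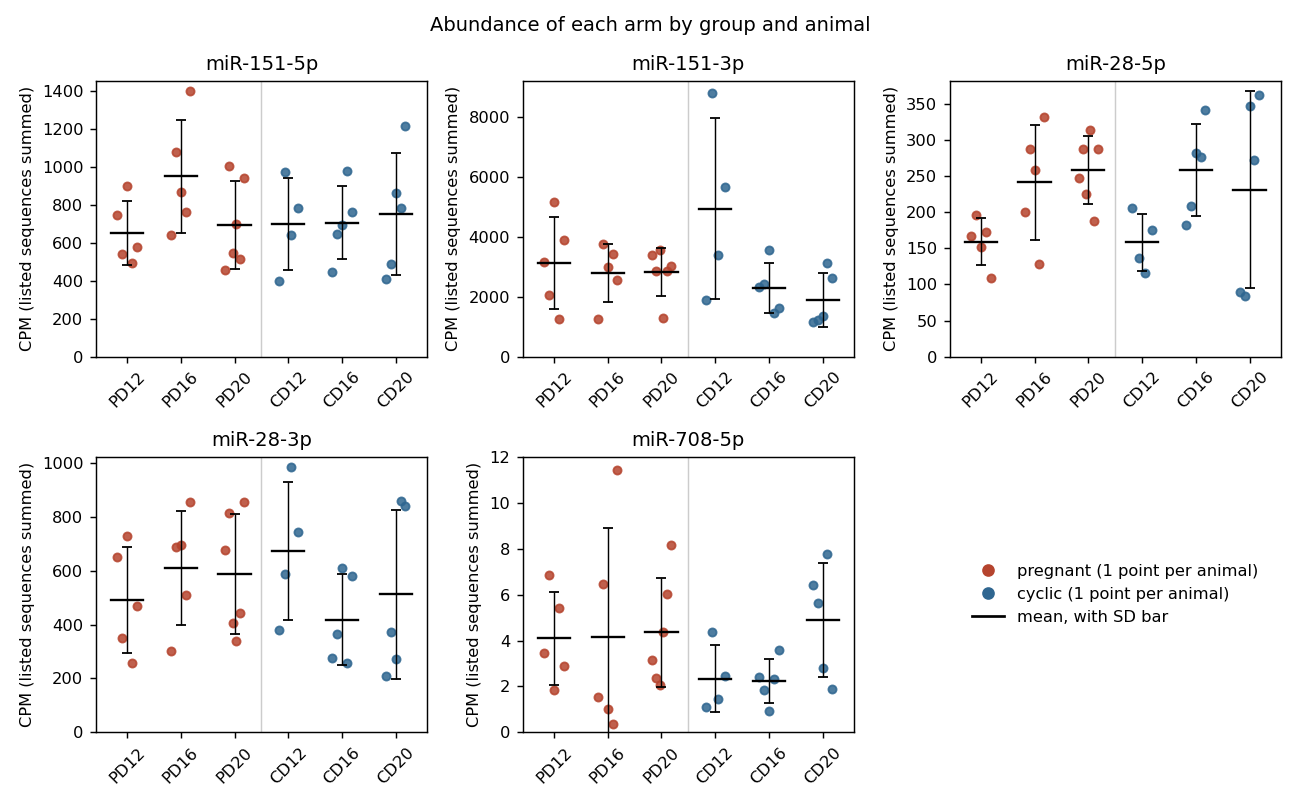
Summed level of the listed sequences of each arm (CPM, linear axes from 0) in every animal, by group, with pregnant animals in red and cyclic animals in blue; the line is the mean and the bar the SD. miR-151-3p is highest in 2 of the 4 CD12 animals (8824 and 5674 CPM), and the groups overlap in every arm between D12 and the later days of the cycle.

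The mean level of miR-28-5p lay higher on the later days of the cycle, and its animals were spread most on D20. Its arm stood at 205.5, 136, 116 and 176 CPM in CD12, at 181.9, 209, 283, 277 and 343 CPM in CD16 and at 89.0, 83.9, 348, 273 and 363 CPM in CD20. CD20 thus held the 2 lowest and the 2 highest of these 14 animals. The DEL G form had the largest positive log2FC on CD16 vs CD12, 0.92 ± 0.50 (edgeR, adjusted p = 0.397), and DEL AG on CD20 vs CD12, 0.75 ± 0.55 (adjusted p = 0.579). On CD20 vs CD16 the extremes were 0.88 ± 0.42 for canonical miR-28-5p and -0.71 ± 0.48 for miR-151-5p 5' ADD C. miR-28-3p stood at 674 ± 256, 418 ± 168 and 512 ± 315 CPM on the 3 days.

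Groups that did not overlap were found for 2 members, each in 1 comparison of cycle days. miR-28-3p 5' DEL C, DEL A was lower in each CD16 than in each CD12 animal, 1 of 32 members against 2.86% of all sequences, with means of 3.12 ± 0.52 and 5.62 ± 2.61 CPM (edgeR, adjusted p = 0.582). miR-151-5p DEL T was higher in each CD20 than in each CD12 animal, again 1 of 32 against 2.86%, with 7.41 ± 2.22 and 3.54 ± 1.28 CPM (edgeR, adjusted p = 0.322). Both stood at a few CPM. In the other comparisons and directions this held for 0 of 32 members, against 0.573% to 3.44% of all sequences.

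**Figure D3:**
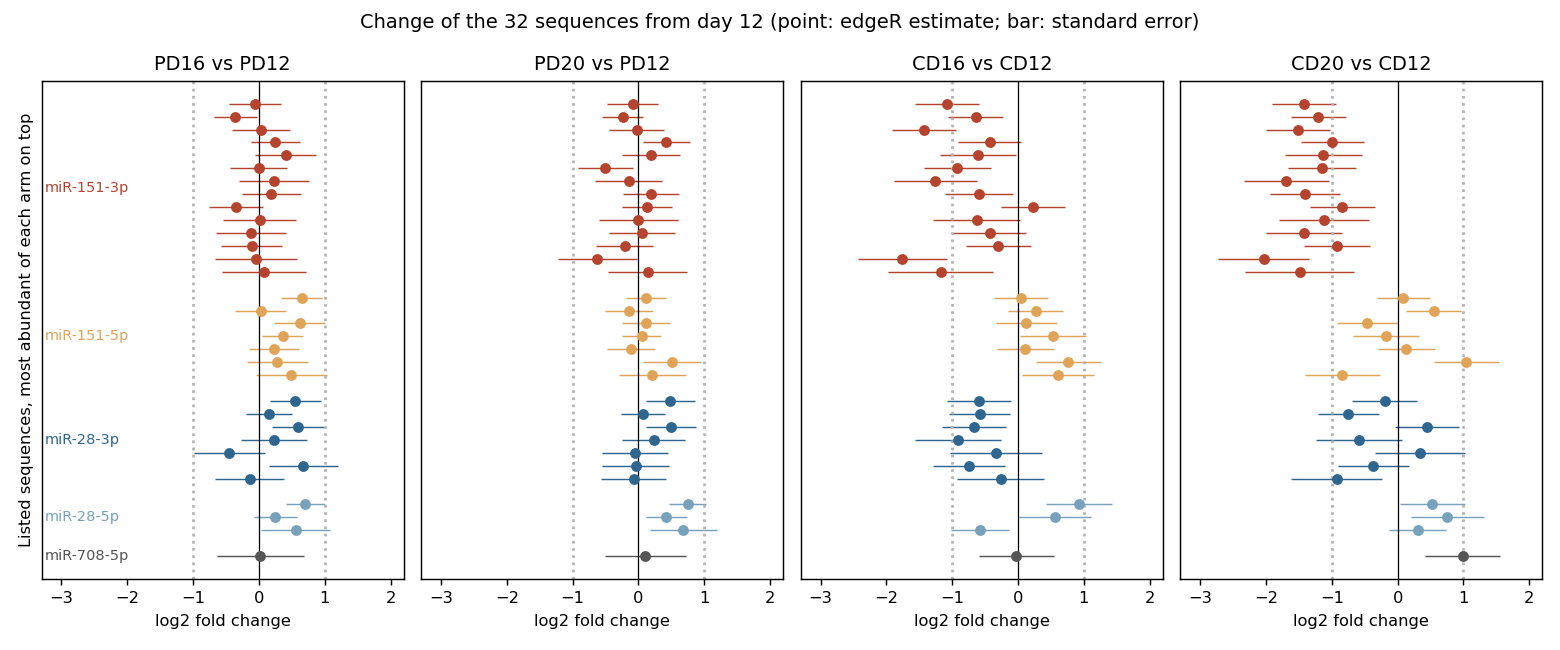
Log2 fold change of each of the 32 sequences from day 12 (point: edgeR estimate, bar: SE), with the most abundant sequence of each arm on top and dotted lines at the fold threshold. All 14 forms of miR-151-3p lie left of 0 on CD20 vs CD12 (median -1.31), whereas on PD20 vs PD12 they lie on both sides of 0 (8 below 0, median -0.02), though 13 are below 0 with library size from all deposited reads.

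Whether the change over days differed between pregnancy and the cycle was tested as an interaction in edgeR over all 30 libraries. No member had an adjusted p below 0.05, where 0% of all sequences did for D16 vs D12, 0.115% for D20 vs D12 and 2.41% for D20 vs D16. At an unadjusted p below 0.05 these comparisons held 2, 4 and 2 members, against 8.13%, 16.4% and 19.1% of all sequences. For the DEL A form of miR-151-3p the change on D20 vs D12 was 1.31 ± 0.62 (SE, log2) higher in pregnancy than in the cycle, with an adjusted p of 0.291. For DEL GA it was 1.45 ± 0.65 (adjusted p = 0.272), and on D16 vs D12 1.53 ± 0.66 (adjusted p = 0.564). These differences shrank without CD12 replicate 2, to 0.97 for DEL A on D20 vs D12 (edgeR, adjusted p = 0.566) and to 0.91 (adjusted p = 0.584) and 0.87 (adjusted p = 0.876) for DEL GA.

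Pregnant and cyclic animals were also compared within each day, and again no member was called, against 0% of all sequences on D12, 0% on D16 and 1.49% on D20. At an unadjusted p below 0.05 edgeR gave 1, 0 and 2 of 32 members, against 6.07%, 10.9% and 28.5% of all sequences. The member on D12 was canonical miR-28-5p, at 8.25 ± 3.66 CPM in PD12 and 15.6 ± 2.56 CPM in CD12 (log2FC -0.91, adjusted p = 0.678). The larger abundant differences on D12 were -1.005 ± 0.52 for miR-151-3p DEL GA and 0.35 ± 0.43 for miR-28-5p DEL AG. Without CD12 replicate 2 that of DEL GA was -0.37 (edgeR, adjusted p = 0.952), and 0 of 32 members had an unadjusted p below 0.05, against 5.84% of all sequences. On D16 the extremes were 0.62 ± 0.39 for miR-28-3p DEL A and -0.24 ± 0.36 for miR-151-5p 5' ADD C.

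On D20 miR-151-3p 5' ADD TA, DEL A had the lowest p of the members. It stood at 13.6, 13.01, 13.7, 4.70, 9.60 and 12.9 CPM in PD20 and at 1.89, 2.47, 4.65, 7.24 and 6.19 CPM in CD20. PD20 replicate 4 was the only pregnant animal within the range of the cyclic ones. The log2FC was 1.37 ± 0.45 (edgeR, adjusted p = 0.0675). Canonical miR-28-5p had the largest negative difference among members with a mean of at least 10 CPM, -0.55 ± 0.42, and miR-151-3p 5' ADD A, DEL A the largest positive one, 0.80 ± 0.42. Without PD20 replicate 1, 1 of 32 members instead of 2 had an unadjusted p below 0.05, against 24.6% of all sequences in that fit. On the same day the epithelial list stood at 19354 ± 4575 CPM in PD20 and 12588 ± 2305 CPM in CD20, the leukocyte list at 312 ± 116 and 440 ± 93.0 CPM, and miR-126 of endothelium at 3913 ± 606 and 4604 ± 293 CPM. The stromal list stood at 116763 ± 137727 and 58859 ± 12385 CPM, the muscle list at 9980 ± 14977 and 3082 ± 3211 CPM, and the erythrocyte list at 2190 ± 1177 and 1076 ± 618 CPM. Their part in the difference of the 5' ADD TA, DEL A form was not tested.

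The ratio of each isomiR to its canonical sequence was compared as well, with limma over 470 pairs of the list. Of the 27 pairs of these microRNAs, 1 passed an adjusted p of 0.05 in 1 of the 9 comparisons: miR-151-3p 5' ADD TA, DEL A on PD20 vs CD20, where 3.62% of all pairs passed. In the other comparisons 0% to 4.26% of all pairs passed (4.26% on PD20 vs PD12, 1.28% on CD20 vs CD16, 0.426% on PD16 vs PD12 and on CD20 vs CD12, 0.213% on CD16 vs CD12). Its reads amounted to 1.98, 2.53, 1.48, 1.38, 1.39 and 2.45% of those of canonical miR-151-3p in the PD20 animals and to 0.507, 0.731, 1.25, 1.23 and 1.02% in the CD20 animals. This ratio was higher in each PD20 than in each CD20 animal, as in 2 of the 27 pairs and 2.55% of all pairs. The other pair was miR-151-5p ADD AT to canonical miR-151-5p, which did not pass (limma, adjusted p = 0.0568). For miR-151-3p 5' ADD TA, DEL A the log2 ratio was higher in PD20 by 0.96 ± 0.27 (SE, limma, adjusted p = 0.0460). This form starts before the canonical start and so carries another seed. The call was lost in 7 of the 11 limma fits without 1 animal (PD20 replicates 1, 2, 3, 5 and 6 and CD20 replicates 1 and 2), with an adjusted p of 0.0771 and a difference of 0.93 without PD20 replicate 1. It was also lost with 5 reads added to each count (0.61, adjusted p = 0.106) and with the replicate block (0.87, adjusted p = 0.0915). In an exact permutation test the adjusted p was 0.102. With these group sizes that test cannot give an unadjusted p below 0.00216. After adjustment over 470 pairs it could pass only if many pairs reached that value, so no conclusion is drawn from it.

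The ratio of the arms showed which strand of the duplex was read more. In miR-151 the 3p arm was ahead in 30 of 30 libraries, with a geometric mean 5p/3p ratio of 0.274, and in miR-28 in 28 of 30, with 0.413. Both lay near balance within the list, where the 19 microRNAs with both arms reached from 0.000428 (miR-148a) to 10464 (miR-10a).

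The 5p/3p ratio of miR-151 was lowest on D12 of the cycle. It was 0.212, 0.110, 0.189 and 0.138 in CD12, 0.191, 0.265, 0.195, 0.675 and 0.472 in CD16, and 0.352, 0.394, 0.631, 0.251 and 0.464 in CD20. Each CD20 animal was above each CD12 animal, and miR-151 was the only 1 of the 19 microRNAs, or 5.26%, of which this held. The difference in log2 ratio was 1.35 ± 0.47 (SE) on CD20 vs CD12 (limma, adjusted p = 0.0670) and 1.01 ± 0.47 on CD16 vs CD12 (adjusted p = 0.187). In pregnancy the means were 0.243 ± 0.0960 (PD12), 0.371 ± 0.146 (PD16) and 0.278 ± 0.154 (PD20), and these groups overlapped.

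The ratio of miR-28 was 0.543, 0.232, 0.118 and 0.236 in CD12 and 0.656, 0.575, 0.463, 1.08 and 0.589 in CD16. In CD20 it was 0.425, 0.224, 1.27, 0.317 and 0.432, so that 4 of 5 animals lay within the range of CD12. CD12 replicate 1 lay within the range of CD16, and the other CD12 animals lay below it. The difference in log2 ratio was 1.402 ± 0.50 on CD16 vs CD12 (limma, adjusted p = 0.0747), and with canonical sequences alone it was -0.03. It was 0.86 ± 0.50 on CD20 vs CD12 (adjusted p = 0.317) and -0.55 ± 0.47 on CD20 vs CD16 (adjusted p = 0.370). In pregnancy the means were 0.386 ± 0.215, 0.420 ± 0.152 and 0.495 ± 0.229. None of the 18 tests of both ratios had an adjusted p below 0.05, and of all 19 microRNAs 5.26% did on PD20 vs PD12, 10.5% on PD20 vs CD20 and 0% on the other comparisons. At an unadjusted p below 0.05 there were 3 of 18, both ratios on CD16 vs CD12 (21.1% of the 19) and miR-151 on CD20 vs CD12 (15.8%).

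**Figure D4:**
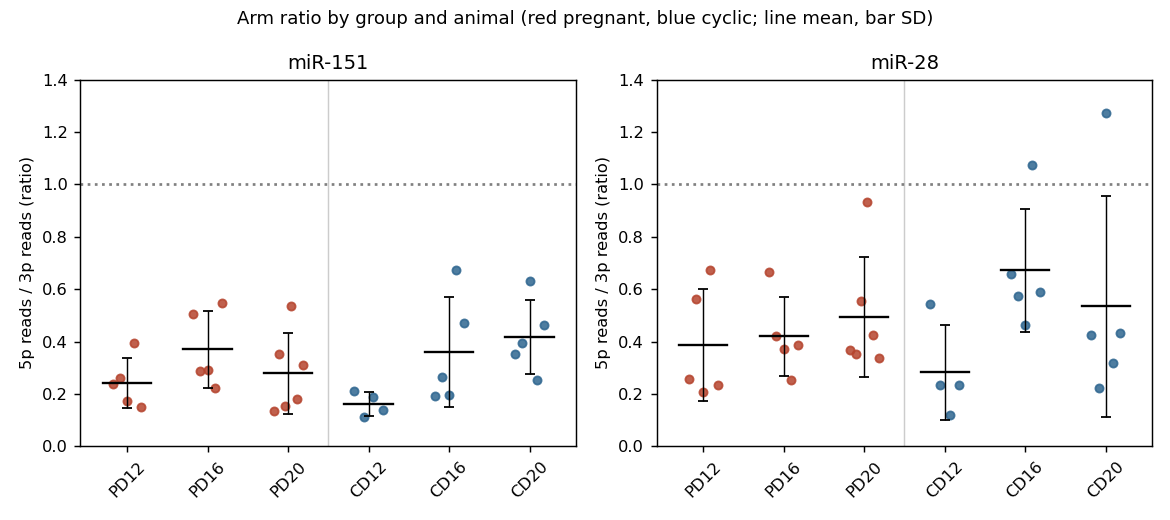
Ratio of 5p to 3p reads of miR-151 and miR-28 in every animal by group (linear axis from 0; red: pregnant, blue: cyclic; line: mean, bar: SD; dotted line: equal reads). The 5 CD20 animals lie above the 4 CD12 animals for miR-151 (0.251 to 0.631 against 0.110 to 0.212), and 2 cyclic animals lie above 1 for miR-28.

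The levels of the arms of 1 hairpin followed each other only loosely over the 30 animals. For miR-151 Pearson's r of the log2 sums was 0.335 (permutation p = 0.0705) and Spearman's rho 0.323 (permutation p = 0.0827), and r was 0.348 without the 2 animals farthest from the median. For miR-28 r was 0.244 (permutation p = 0.193) and rho 0.208 (permutation p = 0.269), and r was 0.0598 without 2 animals, so that it rested on these. Adjusted over the 4 tests, the permutation p-values lay between 0.165 and 0.269. Within groups, as deviations from the group means, r was 0.448 for miR-151 and 0.341 for miR-28.

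The low members of seed AGGAGCT showed no called difference. miR-151-5p 5' DEL TC stayed between 11.3 ± 4.65 CPM (PD20) and 14.04 ± 3.67 CPM (CD20) in group means. miR-708-5p ranged from 2.22 ± 0.961 CPM (CD16) to 4.91 ± 2.49 CPM (CD20), with 24 reads as its highest count, in PD16 replicate 5 and PD20 replicate 6, and 1 read in PD16 replicate 4. The lowest adjusted p of miR-708-5p in the 9 comparisons was 0.273 (edgeR, CD20 vs CD16). Summed over the seed, the means were 176 ± 33.4 CPM in PD12, 259.7 ± 86.1 CPM in PD16, 274 ± 50.2 CPM in PD20, 173 ± 35.2 CPM in CD12, 274 ± 67.4 CPM in CD16 and 250.3 ± 138 CPM in CD20.

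Other listed microRNAs varied over the 30 libraries much as these did, and Pearson's r of log2(CPM + 1) is given as a description, since all values share library depth and scaling. The likeness was sought among 532 sequences of other microRNAs with at least 10 CPM. Canonical miR-151-5p was most like let-7g (r = 0.733), let-7e (0.711) and miR-4331 (0.690), and miR-151-3p DEL A most like a miR-30e sequence (0.867) and 2 sequences of miR-21 (0.860 and 0.849). For miR-28-5p DEL G these were miR-148b (0.790), let-7a-1 (0.788) and miR-381 (0.748), and for miR-28-3p DEL A let-7e (0.859), miR-423 (0.780) and miR-106b (0.727). miR-708-5p had no sequence above 0.461 (miR-499-5p).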

How the data were processed

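The authors deposited for each of the 30 libraries a table of distinct sequences with their raw read counts, after adapter removal, quality filtering and removal of reads that were short or had unknown bases. By the methods of the study, sequences with at least 10 reads in at least 4 animals of a group (3 for CD12) were annotated against miRBase. On the deposited counts 27 of the 32 members meet this minimum, and the other 5, miR-708-5p among them, were kept. The list also holds the authors' own fold changes and p-values between days, which were not used. Only its names and sequences were read.

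Counts were taken by exact match. Library size was the sum of the 873 listed sequences, scaled by TMM in edgeR 4.0.16 (R 4.3.3). Days were fitted within P and within C, and P vs C per day, with the quasi-likelihood test, a prior count of 0.125 and Benjamini-Hochberg adjustment over all sequences. Log2 ratios of arms (19 microRNAs) and of isomiR to canonical reads (470 pairs), with 0.5 reads added, were fitted with limma 3.58.1 over all groups. SEs of edgeR were obtained as the absolute log2FC over the root of F. Both steps were tested on simulated data: of 200 listed sequences changed in the simulation, edgeR recovered 75.5% to 85% over 5 draws. Of the changed ratios, limma recovered 81% to 88%. False calls made up 0.617% to 2.58% of the calls of edgeR and 1.14% to 4.60% of those of limma. All changes were simulated at a single size, beyond the log2FC threshold of a call, and in CD20 vs CD12 alone. How often smaller changes would be recovered was not measured. Reads carry no molecular identifiers.

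The text names the canonical and leading sequences, those with the seed of miR-28-5p, members called in a comparison, the members with the largest log2FC in each direction among those with a mean of at least 10 CPM over all libraries, and the 3 most alike sequences of other microRNAs. Members singled out by an unadjusted p, by groups that do not overlap, or by the likelihood ratio test and DESeq2 were named after their values were seen. The members, marker lists and tests were chosen with earlier results of these data known. The sequences of miR-151-3p are not reported here.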

Additional observations from a re-analysis of the deposited data

Results flagged for a closer look

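Within groups of 4 to 6 animals, 6 of 84 sets of values (14 measures in 6 groups) held an animal far from all others of its group, where chance gives about 1 in 20. PD20 replicate 4 was the lowest for miR-151-3p, at 1303 CPM against 2867 to 3561 CPM in the others, the highest for the 5p/3p ratio of miR-28, at 0.933 against 0.338 to 0.556, and the lowest for the share of canonical miR-151-5p, at 73.8% against 79.7% to 83.1%. CD20 replicate 3 had a 5p/3p ratio of miR-28 of 1.27 against 0.224 to 0.432. CD12 replicate 4 had 2.43% of miR-151-3p reads with a shifted 5′ start against 2.04% to 2.09%. PD12 replicate 5 had 13.2% of miR-28-5p reads on the canonical sequence against 2.63% to 4.89%.

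Reads of these microRNAs also lay on deposited sequences that are not in the list. They numbered 8794 for miR-151-5p, 103215 for miR-151-3p, 7924 for miR-28-5p, 13095 for miR-28-3p and 573 for miR-708-5p. For seed AGGAGCT, 331 distinct deposited sequences held 26607 reads, of which the listed members held 65.7%.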

How the results depend on the processing

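Of 551 values of the main results under other settings, 501 were rated as unchanged. For a count this means the same count, and for a share a move of less than its SD. For a single difference it means the same direction and side of the threshold. Many of these values were counts of called members that stayed at 0. Over the days of the cycle, the likelihood ratio test of edgeR and DESeq2 each called 2 members (miR-151-3p DEL GA and DEL AGGA, the latter at 2.78 CPM) on both CD16 and CD20 vs CD12, and 1 fit of all libraries called 1 (DEL GA). Of all sequences these called 5.27% and 5.73% (likelihood ratio test), 5.84% and 6.41% (DESeq2) and 4.01% and 5.73% (1 fit). On PD20 vs CD20 both tests called 1 member, miR-151-3p 5' ADD TA, DEL A, and leaving out single replicates gave 0 to 1 (1 without PD20 replicate 4 or CD20 replicate 4). Of all sequences the likelihood ratio test called 14.2%, DESeq2 15% and the fits without 1 replicate 0.573% to 13.3% (13.3% without PD20 replicate 4, 11.9% without CD20 replicate 4). With the leading sequences alone, 1 of 18 arm ratios passed, miR-151 on CD20 vs CD12 (1.39, limma adjusted p = 0.0493). The share of all 19 microRNAs under this setting is not given, and in the main fit it was 0% on this comparison. Leaving out single replicates gave 0 to 2 passing ratios, with differences of 1.18 to 1.51 for miR-151 on CD20 vs CD12 (passing without CD12 replicate 1 or CD20 replicate 4) and of 1.05 to 1.79 for miR-28 on CD16 vs CD12 (passing without CD12 replicate 1). With canonical sequences alone the miR-28 difference reversed, to -0.028. The shares of the 19 microRNAs that passed in the fits without 1 replicate are not given, so those counts describe these ratios alone. In the main fit the share was 0% on CD20 vs CD12 and on CD16 vs CD12.

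For isomiR ratios on PD20 vs CD20, 0 of the 27 pairs passed with 5 reads added, in the exact permutation test and with the replicate block. The shares of all 470 pairs under these settings are not given, so the lost call cannot be set against the whole list. The exact permutation test cannot give an unadjusted p below 0.00216 here, so its outcome does not decide the call. For miR-151-3p 5' ADD TA, DEL A the log2 difference was then 0.61 with 5 reads added, 0.96 in the exact permutation test (adjusted p = 0.102) and 0.87 with the replicate block. Leaving out single replicates gave 0 to 2 pairs, with differences of 0.76 to 1.07 for this form. On CD20 against either CD12 or CD16 it gave 0 to 1 pairs. How many of all 470 pairs passed in these fits is not given either, so the counts describe the 27 pairs alone. In the main fit 3.62% of all pairs passed on PD20 vs CD20. The main fit passed 1.28% for CD20 against CD16 and 0.426% for CD20 against CD12. miR-151-3p 5' ADD TA, DEL A no longer passed in 7 of the 11 fits without 1 replicate. Counting all deposited sequences, the leading and canonical share of miR-151-5p was 69.2%, the leading shares of miR-151-3p, miR-28-5p and miR-28-3p were 40.5%, 55.5% and 37.8%, the canonical shares of miR-151-3p and miR-28-3p 15.9% and 33.6%, and miR-28-3p with a shifted 5′ start 5.68%. The causes were not tested.

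Library size from all deposited reads moved the median log2FC of all sequences by 0.39 on CD20 vs CD12, 0.29 on PD12 vs CD12, 0.25 on CD20 vs CD16, -0.23 on PD20 vs CD20, -0.15 on PD20 vs PD12 and 0.14 on CD16 vs CD12, and called no member. Same-numbered animals of different groups did not consistently deviate together (correlations from -0.70 to 0.71). With 4 or 5 pairs per comparison this cannot exclude shared processing. The study sequenced the libraries as 3 pools, and the labels do not give the pool of a library. The replicate block changed no other call of the main results. The interaction called 0 members under each alternative run, which were chosen after seeing the data. Groups held 4 to 6 animals, and 30 of the 32 members were read in every library, miR-708-5p with as few as 1 read, which limits the precision of the rarer forms.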
